A study of Homo sapiens with 30 samples.

Results

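The 10 genes described here encode enzymes of glycolysis: HK2, GPI, ALDOA, TPI1, GAPDH, PGK1, PGAM1, ENO1, PKM and LDHA. They were chosen by name, with the peak scores of these data in view, since PGK1 holds one of the highest-scored 3′UTR peaks. They are 10 of the 62700 genes in the annotation. Their members in the data are the iCLIP peaks centred in these genes on the same strand, and their read counts in the input RNA. The full-length list held 104 such peaks of 14334, the ΔNTR list 132 of 17180, the ΔCTR list 102 of 15870, the ΔLa-module list 7 of 636 and the ΔNTD list 5 of 291.

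The study mapped the RNA contacts of LARP6, an RNA-binding protein of the La-related family, in U-87 MG, an established human glioblastoma cell line. iCLIP crosslinks a protein to RNA with ultraviolet light in living cells, immunoprecipitates it and reads where cDNA synthesis stopped at the crosslinked base. The 5 transgenic lines carried a lentiviral, doxycycline-inducible, codon-optimised LARP6 with an N-terminal myc tag: full length (FL), without the N-terminal region (ΔNTR), without the La-module that holds the RNA-binding fold (ΔLa-module), without both (ΔNTD), or without the C-terminal region (ΔCTR). Each line was a puromycin-selected pool of transduced cells, and the parental cells carried no transgene. All cells, parental ones included, received doxycycline at 60 ng/mL for 24 h, and endogenous LARP6 was still encoded in every line. The iCLIP was made in 3 samples per line, but the peaks are 1 pooled list per variant from which parental peaks had been subtracted. A difference between lists therefore has no replicate check and no test, and the 95% intervals given here cover counting error only. The score of a peak is a whole number of at least 3, summed over the merged peaks and not scaled to depth. The input RNA was 1 long-RNA library (150 nt paired reads) and 1 small-RNA library (50 nt reads) per line.

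Glycolysis splits glucose into pyruvate in the cytosol. An upper, ATP-consuming phase runs from hexokinase through phosphoglucose isomerase to aldolase, and a lower phase, which yields ATP and NADH, runs from triose phosphates through GAPDH, phosphoglycerate kinase, phosphoglycerate mutase and enolase to pyruvate kinase. Lactate dehydrogenase then turns pyruvate into lactate, a step used heavily by glioblastoma cells. Many of these genes are targets of the hypoxia-inducible factors, and their mRNAs are among the most abundant in proliferating cells.

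The summed counts in genes of the 6 long-RNA libraries ranged from 25027075 to 28692476. Of the markers listed for glioblastoma and mesenchymal glial cells, VIM, CD44, NES, SOX9 and TNC were detected in every line. VIM stood at 7039 to 8004 CPM (counts scaled to library size), NES at 52.0 to 57.8 and SOX9 at 42.5 to 53.3. GFAP, an astrocyte marker of the same list, was at or near 0 (at most 0.24 CPM). PTPRC, RBFOX3 and ALB, which mark leukocytes, neurons and hepatocytes, stayed at or below 0.321 CPM. OLIG2 (oligodendroglia, also of the glioblastoma list), EPCAM and KRT18 (epithelium) and PECAM1 (endothelium) were low but higher than these, at up to 2.54, 2.47, 1.02 and 2.42 CPM.

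Nearly all of the score lay in 5 genes, PGK1, PKM, ENO1, LDHA and GAPDH, all of which act after the triose phosphates. So does PGAM1, which scored 5 in FL. Input counts in FL were 81205 to 105609 for PKM, ENO1, LDHA and GAPDH, and 7541 to 25095 for PGK1, PGAM1, TPI1, HK2 and GPI. In FL the summed score was 1238 for PGK1, 540 for PKM, 308 for ENO1, 183 for LDHA and 145 for GAPDH, against 27 for TPI1, 10 for HK2, 6 for GPI and 5 for PGAM1. ALDOA held no peak in any of the 5 lists. The order of the first 5 genes was the same in ΔNTR and ΔCTR, but in ΔNTR the peaks around the PGK1 transcript start decided it: without them PGK1 scored 416, below PKM at 586. Together the 10 genes took 2.40% of the FL score (2462 of 102788, 95% interval 2.3 to 2.49%), 2.42% of the ΔNTR score and 1.90% of the ΔCTR score. Relative to FL the share was 1.01 times as large in ΔNTR (0.952 to 1.07) and 0.793 times in ΔCTR (0.748 to 0.840). The near equality of FL and ΔNTR was the sum of unlike parts. Without the PGK1 peaks around its transcript start, described further on, the ratio was 0.886 in ΔNTR and 0.859 in ΔCTR, and without PGK1 altogether it was 1.15 in ΔNTR and 0.888 in ΔCTR.

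**Figure D1:**
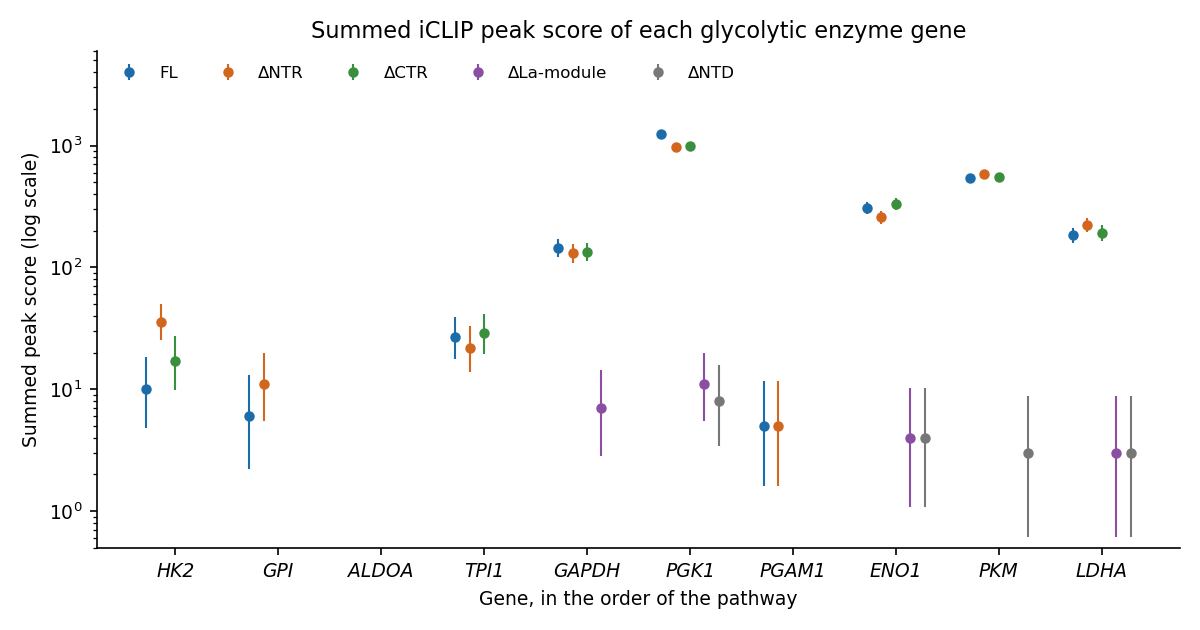
Summed iCLIP peak score (log axis) of each gene in the 5 pooled lists, with exact 95% Poisson intervals, genes in the order of the pathway; lists with no peak in a gene are not drawn. PGK1 reached 1238 in FL, the La-module-less lists had scores of at most 11 in any gene, and ALDOA had none.

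The upper phase was thinly covered. HK2, a hexokinase, the enzyme at the start of the pathway, held 3 FL peaks with scores of 3, 3 and 4, 4 ΔCTR peaks and 11 ΔNTR peaks. Of the 11 ΔNTR peaks 8 lay in the 3′UTR, from 100 to 1840 nt after the stop codon, and 9 had the lowest score possible, 3. The summed ΔNTR score of 36 was 3.98 times the FL share (1.94 to 8.99), and none of the 17 HK2 sites carried a peak in all of FL, ΔNTR and ΔCTR. Restricting HK2 to peaks above a score of 3 left 0.784 in ΔNTR and 0.384 in FL per 1000 input counts, so most of its score rested on the weakest peaks. GPI, which interconverts glucose 6-phosphate and fructose 6-phosphate, held 2 FL peaks of score 3, both outside the canonical exons, 3 coding ΔNTR peaks and no ΔCTR peak.

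ALDOA, the aldolase of most tissues, had no peak and only 76 to 133 input counts. Another annotated gene of the same strand, ENSG00000285043, shares 89.8% of the length of its canonical exons, and reads that fall in both genes are not assigned to either in such count tables. Its mRNA level was therefore not measured by these files, and the part of this overlap in the absence of peaks was not tested. Among protein-coding genes with at least 50% of their canonical exon length shared in this way, 1.66% of 1323 held an FL peak, against 24.4% of the other 18723, and their median FL input count was 0. ALDOA is left out of the medians below.

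TPI1, which interconverts the triose phosphates, held 4 FL peaks with a summed score of 27. Its highest FL site, in the coding sequence of exon 6 (chr12:6870051-6870090, GRCh38, plus strand), scored 12 in FL and 7 in ΔCTR and was absent from ΔNTR. A 3′UTR site centred 71 nt after the stop codon scored 6, 7 and 13 in FL, ΔNTR and ΔCTR. PGAM1, the mutase of the lower phase, held 1 FL peak of score 5 in an exon of a non-coding transcript, 1 ΔNTR peak of score 5 in its 3′UTR and no ΔCTR peak, although its FL input count was 9382.

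PGK1 encodes phosphoglycerate kinase 1, which makes ATP from 1,3-bisphosphoglycerate. Its canonical mRNA has 11 exons and a 3465 nt 3′UTR, and lies on the plus strand of the X chromosome. Apart from 1 intronic FL peak of score 3, its peaks fell in 2 places and not in the coding sequence: around the transcript start and in the proximal 3′UTR. In the 3′UTR, FL held 3 peaks, ΔNTR 6 and ΔCTR 5, centred between 171 and 874 nt after the stop codon. The 3 FL peaks together scored 879 of the 2462 that FL gave to all 10 genes, and their sequences are shown for that reason. They are read from GRCh38, 5′ to 3′, with the longest run of C and T in capitals.

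PGK1 site at chrX:78126080-78126101: tatatttataTTTTgcctgtta
PGK1 site at chrX:78126110-78126129: gtgagcagtgttagCTTagt
PGK1 site at chrX:78126274-78126303 (middle 30 nt of the peak): TTTTTTTTTTTTTCCTgtcatactttgtta

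The site at chrX:78126080-78126101, centred 261 nt after the stop codon, scored 676 in FL, against 256 in ΔNTR and 625 in ΔCTR. Its sequence is 59.1% T, and it had no other exact copy in the genome. Only 2 of 6818 3′UTR peaks scored higher in FL, which is the value that drew attention to PGK1. The next site, 290 nt after the stop codon, scored 137 in FL, against 53 in ΔNTR and 127 in ΔCTR. The T-rich site 459 nt after the stop codon, scored 66, 19 and 61 in the same order. All 3 sites were high in FL and ΔCTR and lower in ΔNTR. As shares of the list score, the ΔNTR values were 0.419 (95% interval 0.361 to 0.484), 0.428 (0.306 to 0.591) and 0.318 (0.180 to 0.537) times those of FL. The ΔCTR values were 0.800 (0.717 to 0.894), 0.802 (0.625 to 1.03) and 0.800 (0.555 to 1.15) times those of FL. Other sites of the 3′UTR went otherwise: chrX:78125974-78126030, 171 nt after the stop codon, had no FL peak, 46 in ΔNTR and 12 in ΔCTR, and chrX:78126191-78126217, 374 nt after it, had a ΔNTR peak of 37 only.

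Around the transcript start, PGK1 carried a second group of peaks that lay between 500 nt upstream of the canonical start and the start codon. FL had 6 peaks there with a summed score of 356, ΔNTR 7 with 558 and ΔCTR 5 with 166. These were 28.8% of the PGK1 score in FL, 57.3% in ΔNTR and 16.6% in ΔCTR. As a share of the list score the group was 1.73 times as large in ΔNTR as in FL (1.52 to 1.99) and 0.404 times in ΔCTR (0.334 to 0.487), the opposite order to the 3′UTR sites in ΔNTR. All 3 PGK1 peaks of the ΔLa-module list (summed score 11) and both of the ΔNTD list (8) also lay here. Most of these peaks are annotated as intron of long alternative PGK1 transcripts. Such upstream peaks were rare: of 5686 protein-coding genes with at least 1000 FL input counts, 23 (0.405%) had an FL peak in the 500 nt before the canonical start and outside annotated exons. PGK1 had the highest upstream score of these in FL, ΔNTR, ΔCTR and ΔNTD, and ranked 4 in ΔLa-module. The next gene in FL reached 131. Lentiviral vectors of the kind used here carry a human PGK promoter ahead of the resistance gene, and the parental cells whose peaks were subtracted lack the vector. RNA from the gene and from the vector cannot be told apart in these lists. Without this group PGK1 kept a score of 882 (FL), 416 (ΔNTR) or 834 (ΔCTR).

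**Figure D2:**
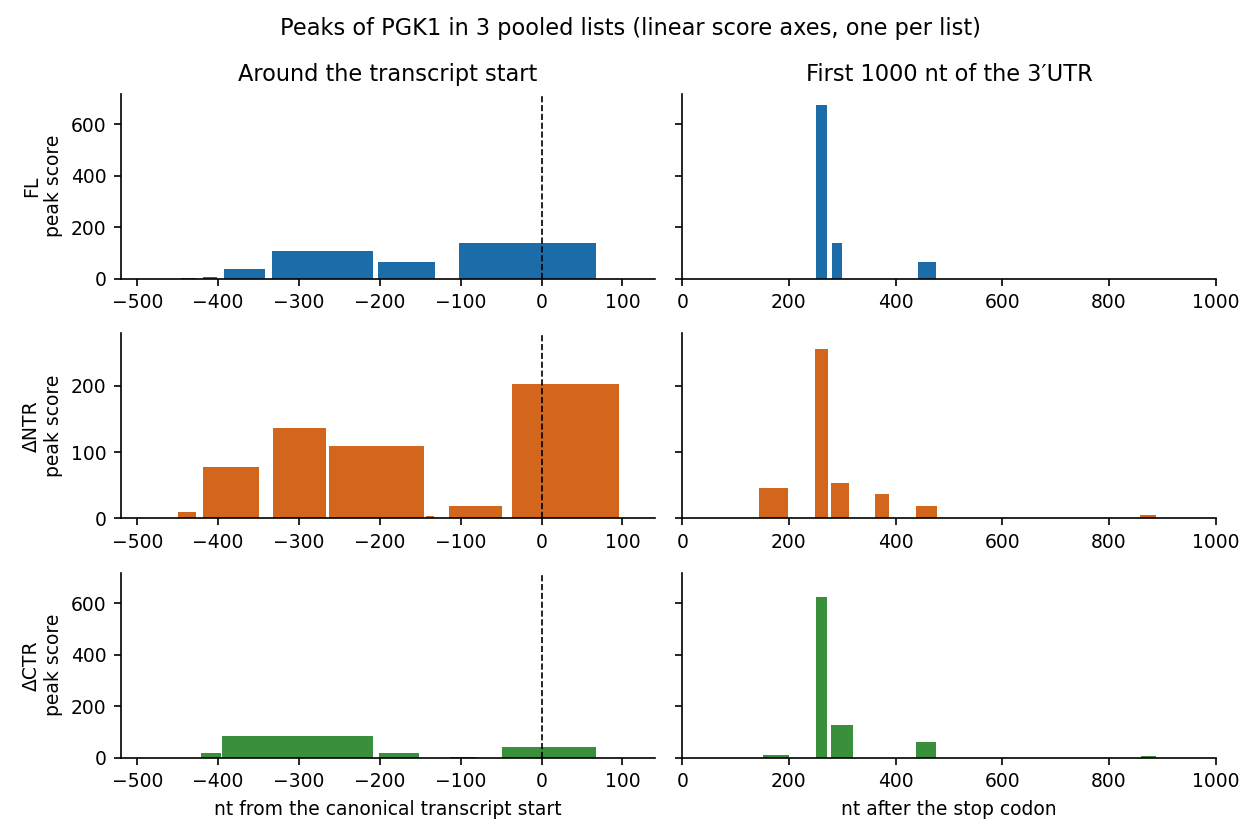
Peaks of PGK1 in FL, ΔNTR and ΔCTR, drawn as bars with the width of the peak and the height of its score (linear axes, a lower maximum for ΔNTR). The left column is centred on the canonical transcript start (dashed) and the right column counts nt after the stop codon; the 3′UTR peak of 676 in FL was 256 in ΔNTR, while the peaks around the start summed to 356 in FL and 558 in ΔNTR.

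PKM encodes pyruvate kinase, the last enzyme of the pathway, on the minus strand of chromosome 15. It held the most peaks of the 10 genes, 32 in FL, against 39 in ΔNTR and 30 in ΔCTR, and its score was spread over many of them. The top peak held 16.1% of the FL score, against a median of 39.7% over the 436 protein-coding genes with a summed FL score of at least 50. LDHA (18.6%) and GAPDH (24.1%) were also below that median. In ΔNTR the top PKM peak held 20.3%, near the median of 21.8%, and in ΔCTR 29.1% against 37.4%. The 621 nt 3′UTR of PKM carried 314 of its 540 FL score units, or 50.6 per 100 nt against 13 in the canonical coding sequence. Apart from a ΔNTR peak of score 4, its 3′UTR peaks merged into 3 long sites. chr15:72199066-72199210 scored 72 in FL, against 69 in ΔNTR and 41 in ΔCTR. chr15:72199212-72199435 scored 142, 138 and 183, and chr15:72199471-72199681 scored 100, 86 and 80. The last of these sites includes a ΔNTR peak of score 8 that is centred in coding sequence. Unlike the PGK1 3′UTR sites, these 3 kept their share of the list score in ΔNTR, at 1.06 (0.751 to 1.5), 1.08 (0.844 to 1.37) and 0.951 (0.704 to 1.28) times FL. The window of its highest FL peak (score 87) is shown because it is the strongest PKM peak.

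PKM site at chr15:72199283-72199312 (middle 30 nt of the peak): cagaggaCTCCCaaccctggcttggggtca

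PKM transcripts contain 1 of 2 mutually exclusive exons of 167 nt, which separate the muscle isoform PKM1 from PKM2, the isoform of proliferating cells. The PKM2 exon (chr15:72202454-72202620) held 3 FL peaks with a summed score of 23, 2 ΔNTR peaks (10) and 2 ΔCTR peaks (10). The PKM1 exon (chr15:72203022-72203188) held no peak in any of the 5 lists. Gene counts do not separate the isoforms, so the level of each exon was not measured here. In the coding sequence, a site of exon 5 (chr15:72209734-72209787) scored 12 in FL, against 25 in ΔNTR and 55 in ΔCTR, a share 3.97 times that of FL in ΔCTR (2.10 to 8.14). A site of exon 3 scored 29, 56 and 40, with a ΔNTR share 2.14 times that of FL (1.34 to 3.47).

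ENO1 encodes the enolase of most tissues, on the minus strand of chromosome 1. Its peaks were mainly coding: 16 of 22 in FL, with 250 of the 308 score units. A single site in exon 6, chr1:8867201-8867258, scored 146 in FL, against 56 in ΔNTR and 152 in ΔCTR, which was 47.4% of the gene's FL score. Its share was 0.424 times that of FL in ΔNTR (0.306 to 0.581) and 0.901 times in ΔCTR (0.713 to 1.14), close to the values of the PGK1 3′UTR sites, though it lies in coding sequence and holds less T. The site is shown for that comparison.

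ENO1 site at chr1:8867214-8867243 (middle 30 nt of the peak, minus strand): tggtgcgaacgccattctgggggtgTCCCT

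The other ENO1 sites were lower. In exon 7, chr1:8866396-8866500 scored 23, 25 and 43 and chr1:8866308-8866350 scored 4, 4 and 18, in the order FL, ΔNTR and ΔCTR. The 3 sites of the 3′UTR that reached 10 in a list scored 7 to 17 in FL, against 14 to 18 in ΔNTR and 7 to 24 in ΔCTR. Of its other coding sites, chr1:8865392-8865463 in exon 8 scored 19, 13 and 8, and chr1:8874825-8874908 in exon 2 scored 12, 23 and 8.

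LDHA encodes the lactate dehydrogenase subunit that favours lactate formation, on the plus strand of chromosome 11. FL held 17 peaks, ΔNTR 22 and ΔCTR 16, with summed scores of 183, 224 and 192. Its highest site, in exon 7 at chr11:18405521-18405546, scored 34 in FL, against 36 in ΔNTR and 56 in ΔCTR, and its FL peak is shown because the sequence occurs 3 times in the genome, this site included.

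LDHA site at chr11:18405525-18405546: ataatgaagaaTCTTaggcggg

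Not all LDHA sites were shared. A site of exon 6, chr11:18403675-18403758, scored 17 in FL and 6 in ΔCTR and had no ΔNTR peak, and a site of exon 2, chr11:18396831-18396856, had a ΔNTR peak of 11 only. The 3 strongest 3′UTR sites lay 124 to 363 nt after the stop codon and scored 11 to 26 in FL, against 17 to 28 in ΔNTR and 13 to 24 in ΔCTR. The LDHA share of the list score was 1.35 times that of FL in ΔNTR (1.11 to 1.66) and 0.908 times in ΔCTR (0.738 to 1.12).

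GAPDH oxidises glyceraldehyde 3-phosphate and is widely used as a reference gene. It held 13 FL, 14 ΔNTR and 13 ΔCTR peaks, with summed scores of 145, 131 and 135. Its highest site sat on the 5′ end of the mRNA: chr12:6534505-6534575, which includes the transcript start, scored 35 in FL, against 37 in ΔNTR and 35 in ΔCTR. Per 100 nt the FL score was 53.9 in the 76 nt 5′UTR, 7.84 in the coding sequence and 12.4 in the 3′UTR. The window is shown because cap-proximal sites recur among these genes.

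GAPDH site at chr12:6534522-6534551 (middle 30 nt of the peak): ctgCTCCTCCTgttcgacagtcagccgcat

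In contrast, a coding site of exon 8 (chr12:6537585-6537696) scored 26 in FL and 7 in both ΔNTR and ΔCTR, a share 0.298 times that of FL in ΔNTR (0.109 to 0.704) and 0.233 times in ΔCTR (0.0854 to 0.551). Sites that began within the first exon were also present in ENO1 (19 in FL, 14 in ΔNTR, 9 in ΔCTR) and PKM (10, 29 and 25). Of the 9 genes with usable counts, 5 had an FL peak centred in the first 100 nt of the canonical transcript (TPI1, GAPDH, ENO1, PKM and LDHA), against 20.4% of the 603 protein-coding genes with at least the input count of the lowest of the 9. In ΔNTR and in ΔCTR it was again 5 of 9, with PGK1 in place of TPI1, against 30.5% and 18.3%. Without the PGK1 peaks around the start it was 4 of 9 in both. The FL peaks of TPI1 and LDHA counted here had the lowest possible score, 3. That of TPI1 counted as coding by the region priority given below. GAPDH, ENO1, PKM and LDHA had 81205 to 105609 FL input counts, far above the minimum of 7541 set for the 603 genes.

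By region, the priority coding sequence, 5′UTR, 3′UTR, non-coding exon, intron assigned 61 of the 104 FL peaks (58.7%, Wilson 95% interval 49.1 to 67.7%) to coding sequence and 25 (24.0%, 16.9 to 33.1%) to 3′UTR. Over all FL peaks the shares were 36.6% and 47.6%. ΔNTR gave 56.1% coding and 28.8% 3′UTR, and ΔCTR 58.8% and 28.4%. By score the picture turned: the 3′UTR held 1348 of the 2462 FL score units (54.8%) and the coding sequence 662 (26.9%). Within these genes the turn came from the few PGK1 and PKM 3′UTR peaks, which were high. The score of all FL peaks was 52.3% 3′UTR and 32.8% coding. By score the 3′UTR share of these genes was thus close to that of the whole FL list, and their coding share was lower. The peak shares rested on the priority. With 3′UTR placed before coding sequence, 21.2% of the FL peaks counted as coding and 61.5% as 3′UTR, because alternative transcripts of these genes annotate coding exons as 3′UTR. With canonical transcripts alone the shares were 57.7% and 24.0%.

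FL, ΔNTR and ΔCTR peaks that shared at least 1 nt were joined into 144 sites. Of these 60 had a peak in all 3 lists, 42 in ΔNTR only, 19 in FL only and 8 in ΔCTR only. Among the 51 sites with a score of at least 10 in some list, 45 were in all 3. Seen from FL, 79 of the 104 peaks (76.0%) met a ΔNTR peak and 80 (76.9%) a ΔCTR peak, against 35.3% and 37.9% of all FL peaks. The peaks of these genes were also higher and wider than usual (median width 33 nt against 22 nt). At a score of at least 10, 38 of 40 met a ΔNTR peak and 40 of 40 a ΔCTR peak, against 88.2% and 93.2% of all such FL peaks. Seen from ΔNTR, 83 of the 132 peaks (62.9%) met an FL peak, against 30.1% of all ΔNTR peaks. From ΔCTR it was 85 of 102 (83.3%), against 34.4%. At a score of at least 10 these shares were 93.5% against 90.7% from ΔNTR and 97.5% against 89.2% from ΔCTR.

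Over the 60 shared sites the ΔNTR score was 1942 against 2332 in FL, a share ratio of 0.921 (0.867 to 0.978), and the ΔCTR score was 2155, a ratio of 0.800 (0.754 to 0.849). The ΔNTR ratio was a balance of opposing PGK1 sites: it was 1.13 (1.05 to 1.21) without the site of 676, 0.779 (0.726 to 0.834) without the sites around the PGK1 start and 1.07 (0.983 to 1.17) without PGK1. Single sites moved both ways, 5 with an interval below 1 and 7 above 1 in ΔNTR, and 11 below and 3 above in ΔCTR. High FL sites in general had a lower share in ΔNTR. Over all 234 sites of the lists that reached 50 in FL, the median ratio was 0.532, and 45.3% were at least 2-fold lower, against 4 of the 9 such sites in the glycolytic genes. These 4, the 3 PGK1 3′UTR sites and the ENO1 exon 6 site, lay between the 13.7 and 33.3 percentiles of the 234. The 3 PKM 3′UTR sites lay between the 82.9 and 91.0 percentiles, and the 2 PGK1 sites around its start at 97.4 and 98.7. In ΔCTR, 13.2% of the 234 sites were at least 2-fold lower, and 3 of the 9: both PGK1 sites around its start and the distal PKM site. These sites were selected on their FL score, so their values are read only against each other.

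For whole genes, those whose 2 compared lists summed to a score of 50 or more were set side by side, with 1 added to each score. In ΔNTR, none of 5 glycolytic genes had a share at least 1.25-fold lower than in FL and LDHA had one at least 1.25-fold higher (0.44 on the log2 scale), against 35.1% and 32.4% of 772 genes. Without its peaks around the start, PGK1 was 0.94 lower on the log2 scale in ΔNTR, at the 13.2 percentile. In ΔCTR, PGK1 alone of 6 genes was at least 1.25-fold lower and none was higher, against 28.1% and 28.3% of 866 genes. Without its peaks around the start, PGK1 was 0.29 lower on the log2 scale in ΔCTR, short of 1.25-fold, so that none of the 6 remained. PGK1 was chosen with its FL 3′UTR peak in view, and its start peaks were left out after seeing the data. Its values without them, in ΔNTR and in ΔCTR, are therefore no independent result.

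The lists without the La-module held few peaks in all, 636 in ΔLa-module and 291 in ΔNTD. The 10 genes held 1.1% and 1.72% of those peaks, against 0.726% of the FL peaks. By score their share was 1.08% and 1.8%, against 2.40% in FL. In these genes ΔLa-module had 7 peaks: 3 in PGK1, 2 in GAPDH, 1 in ENO1 and 1 in LDHA, with scores of 3 or 4. ΔNTD had 5: 2 in PGK1 and 1 each in ENO1, PKM and LDHA, with scores of 3 to 5. All 12 shared at least 1 nt with an FL peak, as did 25% of all ΔLa-module and 24.7% of all ΔNTD peaks. In LDHA both lists held a peak near the 5′ end of the mRNA, at chr11:18394608-18394635 and chr11:18394612-18394628. None lay at the PGK1 3′UTR sites or the ENO1 exon 6 site. Against an FL score of 882, the PGK1 score outside the start region was 0 in both, which allows a share of up to 0.186 times that of FL in ΔLa-module and 0.431 times in ΔNTD (upper exact 95% limits, counting error only).

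Set against mRNA abundance, as summed score per 1000 input counts of the same line, PGK1 stood apart from the other 8 genes. In FL it reached 49.3 (46.6 to 52.2), at the 99.6 percentile of 5686 protein-coding genes with at least 1000 counts, and 35.1 without the peaks around its start. In ΔNTR it was 32.0, or 13.7 without those peaks, and in ΔCTR 40.5, or 33.8. PGK1 was chosen with its score in view, and its 3′UTR peak of 676 was 54.6% of its FL score. These high values are therefore no independent result. PKM followed at 6.16 (5.65 to 6.70), ENO1 at 3.62 (3.22 to 4.04), LDHA at 2.25 (1.94 to 2.61), GAPDH at 1.37 (1.16 to 1.62) and TPI1 at 1.1 (0.727 to 1.61). HK2 stood at 0.961, GPI at 0.796 and PGAM1 at 0.533, with intervals that overlapped each other and that of TPI1. Among the 603 genes at least as abundant as GPI the median was 2.69, so that PKM and ENO1 lay above it and the 6 genes after them below. The 9 genes had medians of 1.37 (FL), 2.46 (ΔNTR) and 1.73 (ΔCTR), against 1.45, 1.90 and 1.97 over all protein-coding genes with 1000 counts. With unstranded counts the FL median was 2.23, and GAPDH, which overlaps an antisense gene, stood at 2.85 in place of 1.37. Most genes of this abundance held a peak: 9 of 9, 9 of 9 and 7 of 9 of the glycolytic genes had one in FL, ΔNTR and ΔCTR, against 93.2%, 95% and 94.1% of genes of at least the lowest count among the 9.

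**Figure D3:**
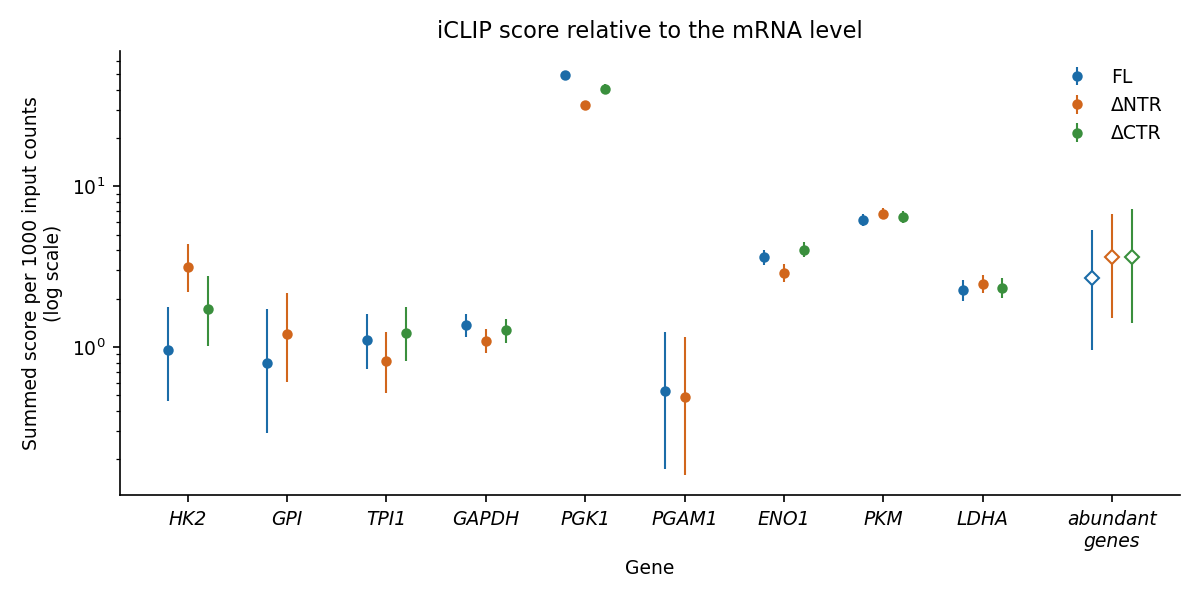
Summed peak score per 1000 long-RNA counts of the same line (log axis) with 95% counting intervals for 9 genes in FL, ΔNTR and ΔCTR; open diamonds are the median and quartiles of protein-coding genes at least as abundant as the lowest of the 9. PGK1, drawn with the peaks around its start, lies at 49.3 in FL against a median of 2.69, and genes at 0 in a list are not drawn. PGK1 was chosen with its score in view.

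Of 28 other genes of the pathway (isoenzymes, glucose and lactate transporters and regulators), 12 held an FL peak, with 42 peaks and a summed score of 209. Only 13 of the 28 had at least 1000 FL input counts. Of these 11 held an FL peak, against 3598 of the 5686 protein-coding genes with such counts. ΔNTR gave 11 genes and a score of 219, and ΔCTR 12 genes and 191. The highest FL scores were 57 for SLC16A3, a lactate exporter, 39 for PDK1, which blocks pyruvate entry into the citric acid cycle, and 25 for HK1, the constitutive hexokinase. In summed score none came near PKM or PGK1. Per 1000 input counts, however, SLC16A3 reached 26.8 (20.3 to 34.8) and PDK1 9.92 (7.05 to 13.6) in FL, both above PKM at 6.16. Tissue-restricted isoenzymes such as PGK2, PGAM2 and PKLR had almost no counts and no peaks. Processed pseudogenes named after the 10 genes held at most 1 peak per list, of score 3, in a PKM pseudogene in ΔNTR and ΔCTR.

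The input RNA gives the levels of these mRNAs in each line, with 1 library per line. Per kb of canonical transcript, GAPDH was highest (2928 CPM per kb in FL), followed by ENO1 (1704), PKM (1355), LDHA (1291) and TPI1 (645). PGK1 (186) and PGAM1 (186) were level in FL, while PGK1 was the lower in parental cells (142 against 176) and the higher in ΔNTR (253 against 226). HK2 (65.9) and GPI (65.1) were lowest in FL. PKM was above LDHA in parental cells and FL, level with it in ΔCTR (1359 against 1357), and below it in ΔNTR, ΔLa-module and ΔNTD.

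Against parental cells, PGK1 and LDHA were higher in all 5 lines. PGK1 stood at 682 CPM in parental cells, 894 in FL, 912 in ΔCTR, 1127 in ΔNTD, 1158 in ΔLa-module and 1220 in ΔNTR. These were 0.39, 0.42, 0.73, 0.76 and 0.84 higher than in parental cells on the log2 scale. LDHA stood at 2407 CPM in parental cells and between 2893 (FL) and 3638 (ΔNTR) in the others, 0.27 to 0.60 higher. Both genes lay above the 91 percentile of all 13223 genes tested in every line. PKM, in contrast, stayed within 0.08 of parental cells on the log2 scale in all 5 lines. The median of the 9 genes was 0.07 in FL, 0.09 in ΔCTR, 0.29 in ΔNTD, 0.34 in ΔLa-module and 0.38 in ΔNTR, against at most 0.01 from 0 over all genes.

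No gene of the 9 was 2-fold changed in any line, where 0.197% (FL), 1.35% (ΔNTR), 0.28% (ΔCTR), 0.794% (ΔLa-module) and 0.65% (ΔNTD) of all genes were. At least 1.25-fold higher levels were found for 1 gene in FL, 2 in ΔCTR, 2 in ΔNTD, 6 in ΔLa-module and 7 in ΔNTR, against 5.66%, 7.12%, 8.88%, 9.18% and 13.8% of all genes in the same order. None was 1.25-fold lower. Of the 28 other pathway genes 19 could be tested, with medians of 0.15 in FL and 0.48 in ΔNTR. In each of these lines 15 of the 19 were higher, against 6555 (FL) and 6352 (ΔNTR) of all 13223 genes. The values ran from -0.24 to 0.79 in FL and from -0.63 to 1.86 in ΔNTR. SLC2A1, the main glucose transporter, was near the top of both ranges, 0.74 higher in FL and 1.76 in ΔNTR.

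A list of hypoxia-responsive genes, chosen with earlier results of these data known, was higher as well. Its median too was highest in ΔNTD, ΔLa-module and ΔNTR, and a link to the glycolytic genes was not tested. Of 10 such genes 9 could be tested, and all 9 were higher than in parental cells in all 5 lines. Of all 13223 genes, 6298 (ΔLa-module) to 6555 (FL) were higher. At least 1.25-fold higher were 7 of the 9 in FL and 9 in ΔNTR, against 5.66% and 13.8% of all genes. Their median log2 difference was 0.44 in FL, 0.44 in ΔCTR, 0.79 in ΔNTD, 0.82 in ΔLa-module and 0.98 in ΔNTR. CA9, a carbonic anhydrase induced by low oxygen, ranged from 1.02 (FL) to 2.10 (ΔNTR), and BNIP3 from 0.72 to 1.67. EGLN3 was left out for low counts, at 2 in parental cells and 13 to 29 in the lines. In bulk RNA, fewer cells with an mRNA and less of it per cell cannot be told apart. With 1 library per line, the transgene, the selected pool and the culture cannot be told apart as sources of these differences. The vector's part in the PGK1 counts was not tested, since the count files hold no positions.

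**Figure D4:**
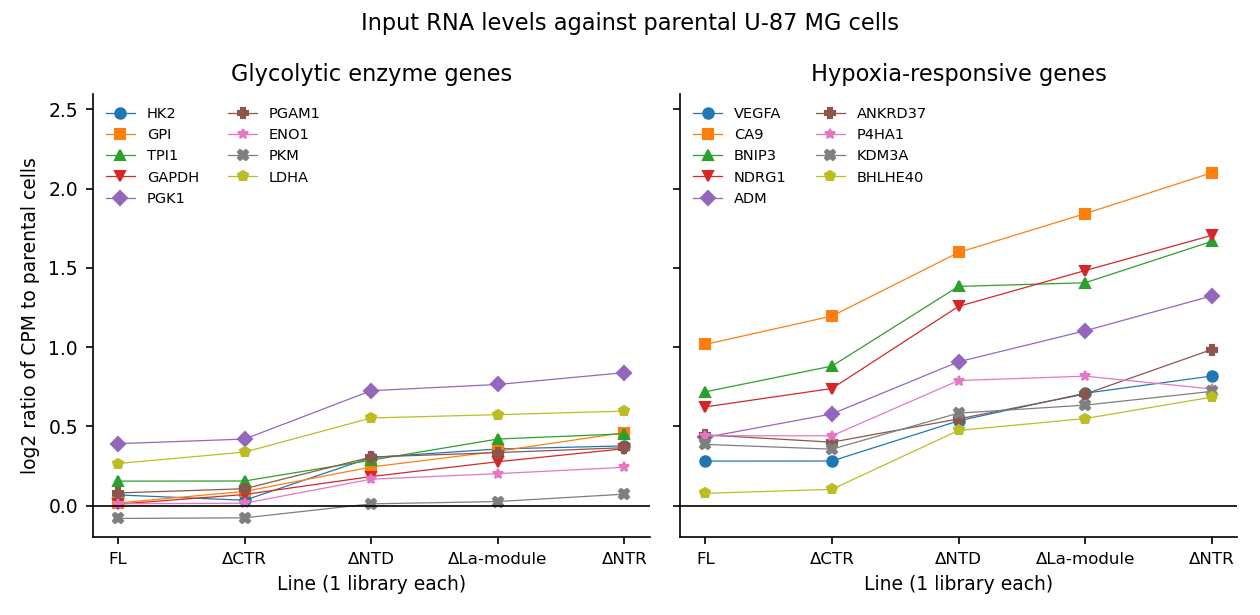
log2 ratio of CPM to parental cells for 9 glycolytic genes (left) and 9 hypoxia-responsive genes (right), 1 library per line, no replicates; thin lines join the values of 1 gene and lines are placed by the median of the glycolytic genes. PGK1 runs from 0.39 in FL to 0.84 in ΔNTR and PKM stays near 0, while the hypoxia-responsive genes run up to 2.10.

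The bases of the sites were little different from the mRNAs around them. The exonic FL peaks of these genes, without those around the PGK1 start, were 52.0% C and T, against 50.1% of their canonical transcripts and 52.9% of all FL peaks. Coding peaks were 48.7% C and T against 46.7% of the coding sequence, and 3′UTR peaks 56.6% against 52.9% of the 3′UTRs. ΔNTR and ΔCTR gave 52.4% and 52.7% for the exonic peaks. Of the sequences printed above, the PGK1 sites 261, 290 and 459 nt after the stop codon were 68.2%, 45% and 83.3% C and T, the GAPDH site 66.7%, and the ENO1, PKM and LDHA sites 53.3%, 50% and 31.8%.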

How the data were processed

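The long-RNA, small-RNA and iCLIP data were processed by the authors. Per the labels and methods, iCLIP reads were demultiplexed, cleared of rRNA and tRNA with Bowtie 2, aligned with STAR to GRCh38.p13 (GENCODE annotation), deduplicated with UMI-tools and called per replicate with Clippy, then merged over replicates with summed scores, and cleared of parental peaks with bedtools 2.30.0. The deposited peak score is the summed Clippy score. Input reads were trimmed with Trim Galore 0.6.10 and aligned with STAR 2.7.10b, and the deposited files hold raw counts per gene; the reverse-strand column was used for long RNA and the forward one for small RNA, a choice read from the values.

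Peaks were assigned by their centre and strand to genes of a later GENCODE release on the same GRCh38 build (62625 of 62750 gene identifiers matched) with Python 3.11.15, pysam 0.24.0 and bedtools 2.31.1. Counts were scaled to CPM with TMM factors (edgeR 4.0.16), without a pseudocount, and changes were taken over genes with at least 1 CPM in every library. Ratios have conditional exact binomial intervals, and shares exact or Wilson intervals. Peak lists are pooled and input libraries single, so no test was run. Interval code was tested on simulated data. Alternatives included DESeq2 1.42.0 size factors, unstranded counts, peaks above a score of 3 and other annotation priorities. The named genes are the 10 enzymes, the 3 other pathway genes with the highest FL score, and genes a value turns on, with sites that reached a score of 10 named or counted (SLC2A1, CA9, BNIP3 and EGLN3 were named after their values were seen). The members and lists were chosen with earlier results of these data known. The PGK1 alternative and the handling of ALDOA were chosen after seeing the data. Samples were grouped by line as labelled, with 1 pooled peak list per variant.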

Additional observations from a re-analysis of the deposited data

How the results depend on the processing

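Of the values recomputed for the main comparisons, 120 stayed within their counting interval or within 1.5 times, 52 moved beyond it and 5 changed direction. The cause was not tested unless the construction of the alternative gives it. No paired analysis was possible because the peak lists pool their replicates and each line has 1 input library, which also leaves no replicate to omit.

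Without the PGK1 peaks around its transcript start (chosen after seeing the data), the summed score of the 10 genes was 2106 in FL, against 1688 in ΔNTR, with 2089 in ΔCTR, 14 in ΔLa-module (4 peaks) and 10 in ΔNTD (3 peaks), the FL share was 2.05%, the share ratios to FL were 0.886 in ΔNTR and 0.859 in ΔCTR, and the ratios over shared sites were 0.779 and 0.870. With peaks above a score of 3 only, the summed score was 2144 in ΔNTR, 16 in ΔLa-module (4 peaks) and 9 in ΔNTD (2 peaks), the FL share was 3.00%, the ΔNTR ratio 1.1, the ΔNTR median per 1000 counts 1.02, and the median over all protein-coding genes 0 in FL, ΔNTR and ΔCTR, as it was with a count minimum of 100. Without PGK1 the FL share was 1.19% and the ratios were 1.15 in ΔNTR and 0.888 in ΔCTR. With 3′UTR before coding sequence, 21.2%, 20.5% and 21.6% of the FL, ΔNTR and ΔCTR peaks were coding and 61.5%, 64.4% and 65.7% 3′UTR. For shared sites, the ΔNTR ratio was 0.821 when 50% of both peaks had to overlap and 1.13 without the highest-scored site, a change of direction.

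With unstranded counts the FL median per 1000 counts was 2.23, and 4 genes instead of 2 were 1.25-fold higher in ΔNTD. With ALDOA the ΔNTR median per 1000 counts was 1.83. With small-RNA counts it was 5719 in FL, against 5955 in ΔNTR and 5647 in ΔCTR, and the median log2 difference from parental cells was -0.45 in ΔCTR, -0.19 in FL, -0.16 in ΔNTR and -0.016 in ΔLa-module, with 1, 1, 2 and 4 genes at least 1.25-fold higher in ΔNTR, ΔCTR, ΔLa-module and ΔNTD. Those libraries select short RNA and gave the 9 genes 166 to 415 counts in all, too few for a level. Without the CPM minimum, 17.3% (FL), 24.3% (ΔNTR), 18.6% (ΔCTR), 20.3% (ΔLa-module) and 18.5% (ΔNTD) of all genes were 1.25-fold higher. In 30 nt windows the FL sites were 50.3% C and T. Normalization by DESeq2 size factors or total counts and a pseudocount of 1 changed no median beyond its interval.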
